A study of Mus musculus with 12 samples.

Results

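A total of 158 protein-coding genes had no reads in untreated cells and reads in every library of cells given doxorubicin together with magnesium hexacyanoferrate nanocatalysts (MgHCF NCs). They were chosen by 3 criteria: FPKM (fragments mapped to a gene, scaled to its length and to the depth of the library) of 0 in the 3 untreated libraries, above 0 in the 3 D_MgHCF libraries, and a mean of at least 0.2 over these 3. The deposited FPKM also carry a scaling between libraries by the authors. The choice was made among 21932 coding genes, with genes named Hox, Wnt or Hist left out, of 54345 genes in all. The untreated and D_MgHCF values therefore selected the genes, and they are given here as a description without a test. Of the coding genes, 7110 were at 0 in the 3 untreated libraries, 811 of these were detected in all 3 D_MgHCF libraries, and 158 of the 811 also reached the minimum mean.

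Poly(A) RNA was sequenced from wild-type H9c2(2-1) cells, a line of cardiomyoblasts from embryonic rat heart that the labels call myoblasts of mouse. Each group had 3 libraries, and all treatments lasted 6 h. Unt cells were untreated, DOX cells received doxorubicin (an anthracycline that poisons topoisomerase II), D_DXZ cells received doxorubicin with dexrazoxane (an iron chelator used against anthracycline cardiotoxicity), and D_MgHCF cells received doxorubicin with MgHCF NCs, so that every treated group shared doxorubicin. The labels number the replicates without stating whether they were separate cultures, there was no group with MgHCF NCs alone, and doses of the sequenced cells are not given in the sources used here.

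In any differentiated cell line, a large part of the coding genome is silent, since genes of other lineages are packed in repressive chromatin and lack their activating transcription factors. Typical examples are genes of sperm, neurons, epithelia, liver or blood cells, together with hormones and their receptors. FPKM far below 1 correspond to few reads and, in a bulk sample, many cells with little RNA of a gene and few cells with more of it cannot be told apart.

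The labelled cell type was compared with its markers before the genes were described. Vim and Acta2, which encode vimentin and smooth muscle actin, were abundant in untreated cells (220.0 to 268 and 262 to 323 FPKM), and Des, encoding desmin, ranged from 1.36 to 1.57 FPKM. Myod1, Pax7, Myf5 and Myog, which encode the myogenic regulators and the satellite cell factor of skeletal muscle, were at 0 in the 3 untreated libraries. Summed over these 7 markers, the level in D_MgHCF was 303 to 595 FPKM, against 484 to 593 in Unt, 1919 to 2588 in D_DXZ and 2353 to 3169 in DOX. Nearly all of this sum was Acta2 and Vim, and its group differences include the scaling between libraries. Des went the other way, with means of 1.46 FPKM in Unt, 0.553 in DOX, 0.542 in D_DXZ and 0.861 in D_MgHCF. Pax7 was detected in all 3 D_MgHCF libraries (0.0812, 0.0268 and 0.0139 FPKM) and in no other. The reads were assigned to mouse genes of the GRCm38 build, whereas the line is of rat origin, and how this bears on single genes was not tested. Libraries held 16626514 to 19365119 reads on genes. In the deposited values, 1 read in a transcript of 1 kb was worth 0.0393 to 0.0476 FPKM in Unt and D_MgHCF libraries and 0.0619 to 0.0864 FPKM in DOX and D_DXZ libraries, so that a gene with a few reads sat at a higher FPKM in the latter. Depth did not set this order, and the values carry a scaling between libraries. DOX replicate 1 held the most reads (19365119) at 0.0659 FPKM per read, and D_MgHCF replicate 1 the fewest (16626514) at 0.0476.

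The 158 genes were low in level. Their mean FPKM in D_MgHCF ranged from 0.201 to 3.58 with a median of 0.375, against a median of 3.83 for the 14562 coding genes detected in all 3 D_MgHCF libraries. Only 13 of them reached a mean of 1 FPKM and 48 a mean of 0.5. They rested on 8 to 300 reads summed over the 3 D_MgHCF libraries, with a median of 55. Taking 3 reads over the untreated group as the upper limit of a count of 0, the mean level in D_MgHCF was at least 2.92-fold to at least 107-fold that of untreated cells, with a median bound of 19.7-fold. These limits cover counting error only. At the edge of the selection, 1700013G24Rik (0.201), Batf (0.202) and Baiap2l2 (0.202 FPKM) lay just inside the minimum, and Prrt1 (0.1997), Actl7a (0.199) and Mansc1 (0.199 FPKM) just outside it.

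**Figure D1:**
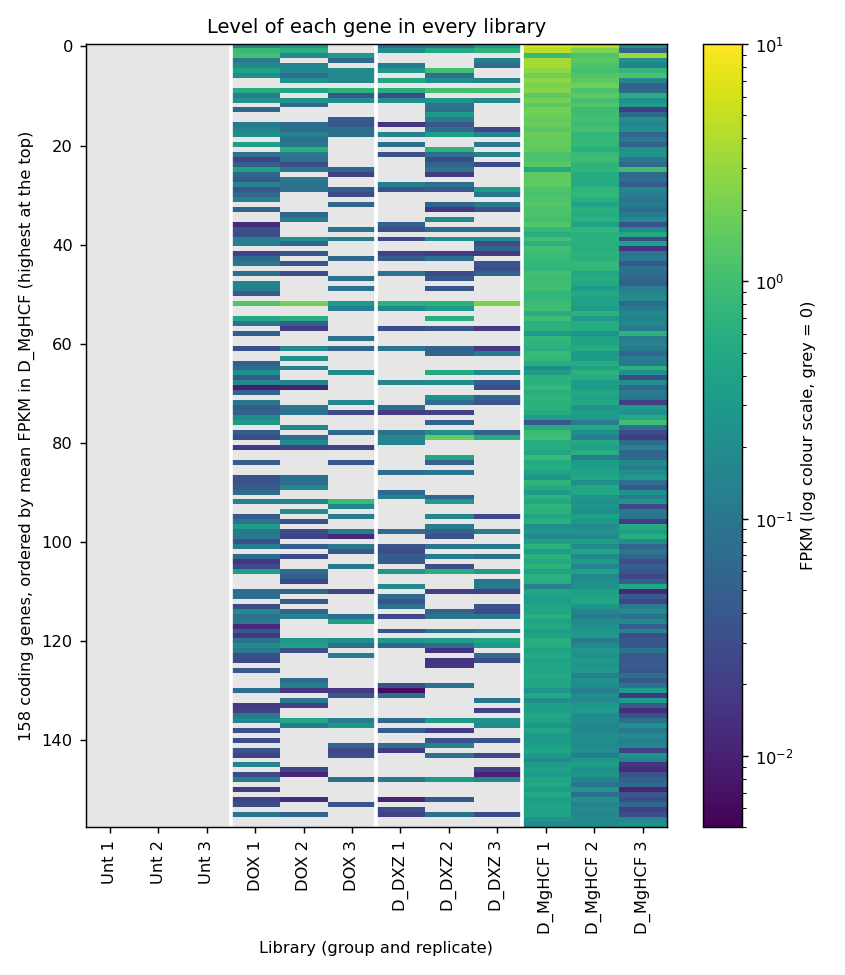
FPKM of the 158 genes (rows, ordered by mean FPKM in D_MgHCF) in the 12 libraries (columns), on a log colour scale with values of 0 in grey. The 3 untreated columns are grey by the choice of genes, DOX and D_DXZ columns hold scattered low values, and the third D_MgHCF column is darker than the other 2.

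The same criteria gave far fewer genes in the other treated groups. With DOX in place of D_MgHCF 11 coding genes passed and with D_DXZ 15 passed, and 9 and 10 of these, respectively, were among the 158. The reversed criteria, 0 in D_MgHCF and detected in all untreated libraries, gave 1 gene, 4930519P11Rik. The size of the D_MgHCF selection went along with a larger number of detected genes in general: 15780 to 16356 coding genes had a read in D_MgHCF libraries, against 13430 to 14354 in the other 9 libraries. Olfactory receptor genes, which are normally transcribed in olfactory neurons, showed the same shift, with 98 to 107 of 1135 detected in D_MgHCF libraries and 24 to 46 in the other libraries. Their part in the result was not tested.

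The 3 D_MgHCF libraries did not contribute equally. Summed over the 158 genes, replicate 1 held 5789 reads, replicate 2 held 4212 and replicate 3 held 1388, which correspond to 348, 237 and 80.2 reads per 1000000 reads on genes. The highest value was in replicate 1 for 131 genes, in replicate 2 for 14 and in replicate 3 for 13, and 138 genes were lowest in replicate 3. In replicate 3, 30 genes rested on 1 read, and 114 had at least 3 reads. The median ratio of replicate 1 to replicate 3 was 8.18 and that of replicate 2 to replicate 3 was 4.44, whereas over 10794 genes with at least 1 FPKM in all untreated libraries these ratios were 0.975 and 0.952. Without replicate 3, 276 genes met the criteria.

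**Figure D2:**
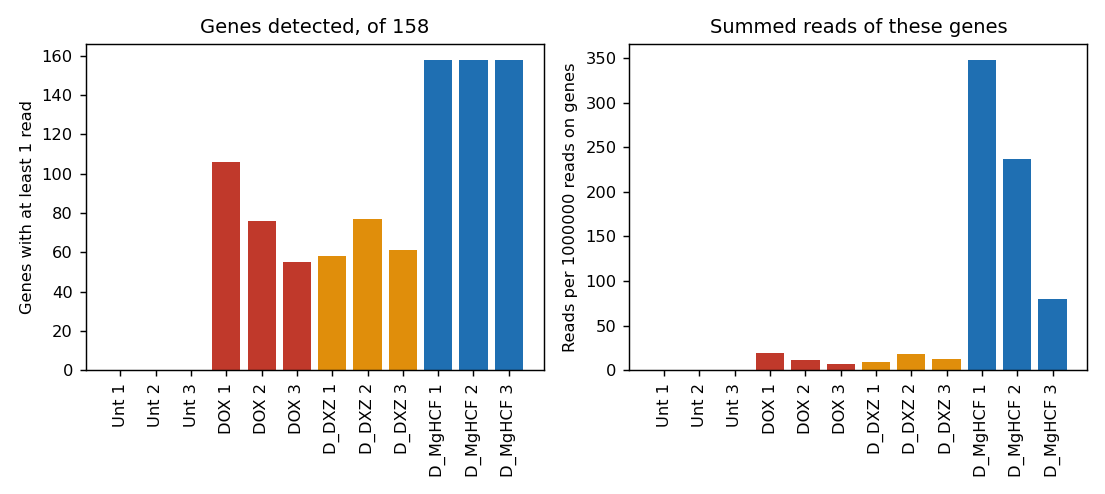
Left, number of the 158 genes with at least 1 read in each library; right, their summed reads per 1000000 reads on genes. Bars are single libraries and start at 0: DOX and D_DXZ libraries detected 55 to 106 of the genes with 7.27 to 19.6 such reads, against 80.2 to 348 in D_MgHCF.

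Gjd3, encoding a connexin of gap junctions, had the highest level. Its FPKM in D_MgHCF replicates 1 to 3 were 6.03, 4.46 and 0.243 (mean 3.58 ± 2.99, SD, n = 3), at least 73.4-fold above untreated cells, while DOX libraries had 0.157, 0.279 and 0 and D_DXZ libraries 0.0740, 0.0912 and 0.358 FPKM. D_MgHCF replicate 3 thus overlapped both of the other treated groups, although replicates 1 and 2 were far above them. Gjd3 lies at chr11:98982180-98983016 (GRCm38, minus strand) with 1 exon in the annotation. Fam229a, a small gene without a well described function, followed with 4.71, 2.28 and 0.0640 FPKM. Its single read in replicate 3 was below the 0.827 and 0.612 FPKM of DOX replicates 1 and 2 and below all D_DXZ libraries (0.195, 0.479 and 0.705 FPKM).

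Fam229a and Tssk3, which encodes a serine kinase of developing sperm, were neighbours among the 158 genes. Tssk3 (chr4:129489014-129491022, minus strand) and Fam229a (chr4:129491190-129491956, plus strand) are transcribed away from each other, with 167 bases between the deposited gene models. The RefSeq start site of Tssk3 lies 252 bases from the end of its model. Tssk3 had 2.53, 1.20 and 0.0637 FPKM in D_MgHCF, the same order of libraries as Fam229a. In contrast to most of the genes, Tssk3 was detected in all DOX libraries (0.566, 0.426 and 0.675 FPKM) and all D_DXZ libraries (0.581, 1.07 and 0.995 FPKM), so that its groups overlapped. In all, 5 pairs of the 158 genes had no more than 20 kb between them. The other pairs were the related kinase genes Ptk6 and Srms (2772 bases), Slc34a3 and Cysrt1 (4453 bases), Gm45337 and Gm29735 (11846 bases) and Fam166b and Cd72 (17327 bases). Gm45337 and Gm29735 share a stretch of at least 150 bases at 95% identity or more.

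The sequence upstream of the start site is shown for Fam229a, on the side of Tssk3, and for the other 5 genes among the 15 of highest level whose RefSeq start site lay within 2 bases of the end of the deposited gene model, to show how the genes differed in CG dinucleotides. Each line gives the 100 bases before the start in GRCm38.p6, read 5′ to 3′ on the strand of the gene, with CG in capitals: chr4:129491090-129491189 (plus strand), chr6:87777970-87778069 (plus strand), chr19:4498584-4498683 (minus strand), chr17:56300287-56300386 (minus strand), chr15:81235399-81235498 (plus strand) and chr7:79617658-79617757 (minus strand).
Fam229a: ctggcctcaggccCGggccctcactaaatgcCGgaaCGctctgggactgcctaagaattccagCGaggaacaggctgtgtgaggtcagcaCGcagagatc
Gp9: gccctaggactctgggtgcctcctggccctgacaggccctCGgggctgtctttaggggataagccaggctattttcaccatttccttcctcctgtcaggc
2010003K11Rik: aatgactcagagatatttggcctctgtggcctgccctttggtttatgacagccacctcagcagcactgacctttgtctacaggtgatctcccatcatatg
Arrdc5: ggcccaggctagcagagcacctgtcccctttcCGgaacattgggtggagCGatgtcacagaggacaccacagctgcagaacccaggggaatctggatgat
Mchr1: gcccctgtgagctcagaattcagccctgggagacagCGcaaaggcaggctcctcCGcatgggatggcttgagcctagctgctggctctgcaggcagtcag
Rhcg: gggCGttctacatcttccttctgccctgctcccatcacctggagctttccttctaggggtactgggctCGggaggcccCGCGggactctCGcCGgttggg

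These windows held 5 CG (Fam229a), 1 (Gp9), 0 (2010003K11Rik), 2 (Arrdc5), 2 (Mchr1) and 6 (Rhcg). CG reads the same on both strands, and 79.3% of the 32851 RefSeq promoters in the table had at least 1 in the same 100 bases, with a median of 3. At least 5 were present in 38.9% of them. Of the 158 genes, 118 (74.7%) matched a promoter in the table, and as the others have no entry there, a comparison of promoter CG over the group is void.

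Hormones, neuropeptides and other secreted factors made up 12 of the genes, grouped by their known roles after the names were seen. Insl5, an insulin-like hormone of colonic endocrine cells, had 2.24, 1.85 and 0.0563 FPKM in D_MgHCF (34, 34 and 1 reads) and no read in any of the other 9 libraries. Its mean of 1.38 ± 1.16 FPKM was at least 24.5-fold above untreated cells, at least 13.2-fold above DOX and at least 14.2-fold above D_DXZ. Replicates 1 and 2 carried nearly all of it. Trh, encoding thyrotropin-releasing hormone, showed the same pattern at a lower level, with 0.653, 0.539 and 0.0294 FPKM in D_MgHCF, 0.0476, 0 and 0 in DOX and 0 in D_DXZ. Across the 12 secreted factors the mean FPKM in D_MgHCF ranged from 0.262 to 1.38 with a median of 0.394. D_MgHCF libraries all lay above all DOX libraries for 5 of the 12 (background 32.5% of 25044 genes tested) and above all D_DXZ libraries for 7 (background 30.6%). D_MgHCF values chose the genes, so nothing is read from such counts here or in the groups that follow.

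Avp, the gene of the antidiuretic hormone vasopressin, went the other way among the treated groups. It was detected in all treated libraries, with 1.26, 2.03 and 0.300 FPKM in DOX, 0.644, 0.661 and 2.21 FPKM in D_DXZ and 0.908, 0.409 and 0.0706 FPKM in D_MgHCF. All 3 groups overlapped, and the D_MgHCF mean (0.462 ± 0.421) was 0.387 times that of DOX and 0.395 times that of D_DXZ. Rescaled to TPM (transcripts per 1000000, with each library summing to the same total), these ratios were 0.820 and 0.772. Avpr1b, a vasopressin receptor of the pituitary, was also among the genes, with 1.53, 0.557 and 0.0608 FPKM in D_MgHCF, 0.0655, 0 and 0.0215 in DOX and 0, 0.0190 and 0 in D_DXZ. Its D_MgHCF replicate 3 fell just below DOX replicate 1, so that these groups overlapped while D_MgHCF and D_DXZ did not.

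Receptors coupled to G proteins numbered 10. Mchr1, the receptor of melanin-concentrating hormone, had the highest level, with 1.501, 1.49 and 0.596 FPKM in D_MgHCF, 0.120, 0 and 0.0395 in DOX and 0.0283, 0 and 0 in D_DXZ. Every D_MgHCF library was above every other treated library, and the mean was 22.4 times that of DOX. Cnr2, the cannabinoid receptor of immune cells, was supported by 254 reads, with 1.71, 0.937 and 0.164 FPKM in D_MgHCF and at most 0.116 FPKM in DOX and D_DXZ. Ltb4r2, a leukotriene B4 receptor, rested on 195 reads at 1.15, 0.857 and 0.264 FPKM, against at most 0.141 FPKM in the other treated groups. Lpar5, a lysophosphatidic acid receptor, had 1.51, 0.545 and 0.0807 FPKM in D_MgHCF and at most 0.103 FPKM in DOX and D_DXZ. All 10 receptors lay above all D_DXZ libraries without overlap (30.6% of all genes tested) and 7 above all DOX libraries (32.5%). Olfr1419 was the only olfactory receptor that passed, of 1093 at 0 in untreated cells, and none of the 317 vomeronasal receptors at 0 in untreated cells passed.

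Genes of sperm, oocytes and meiosis numbered 16, with mean FPKM of 0.217 to 1.43 in D_MgHCF. Spem1, needed for the shaping of sperm, had 2.65, 1.47 and 0.157 FPKM in D_MgHCF, 0, 0.225 and 0.166 in DOX and 0.476, 0.220 and 0.144 in D_DXZ. The third D_MgHCF library lay within the range of the other treated groups. Spesp1, a sperm surface gene with 174 reads, had 1.61, 0.814 and 0.107 FPKM, against 0, 0.0769 and 0 in DOX and none in D_DXZ. Of the 16 genes, 6 were above DOX without overlap and 9 above D_DXZ, beside 32.5% and 30.6% of all genes tested. Among the germ cell markers, Ddx4 had 0.490, 0.678 and 0.149 FPKM in D_MgHCF. It was also detected in every Unt (0.0277 to 0.0659 FPKM) and DOX library (0.0219 to 0.181 FPKM). Sycp3 was highest on average in D_DXZ, at 0.205 FPKM, against 0.0880 in D_MgHCF, 0.0695 in DOX and 0.0535 in Unt. Dazl was at 0 in all libraries. The summed level of the 3 germ cell markers (Ddx4, Dazl and Sycp3) was 0.213 to 0.802 FPKM in D_MgHCF, 0.0407 to 0.160 in Unt, 0.0287 to 0.230 in DOX and 0.168 to 0.302 in D_DXZ, and its part in the result was not tested.

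Epithelial surface and kinase genes formed a group of 8. Psca, encoding a surface antigen of prostate stem cells, had 1.99, 1.05 and 0.237 FPKM in D_MgHCF and was detected in all DOX (0.230, 0.272 and 0.201) and D_DXZ (0.216, 0.266 and 0.174) libraries. The third D_MgHCF library lay within the ranges of DOX and D_DXZ. Grb7, an adaptor of receptor tyrosine kinases, rested on 200 reads in D_MgHCF (1.83, 0.771 and 0.0605 FPKM), and it too was present in all DOX (0.0771 to 0.215) and D_DXZ (0.147 to 0.340) libraries. Ptk6 and Srms, neighbouring genes of nonreceptor tyrosine kinases, were steadier across replicates. Srms had 0.650, 0.598 and 0.414 FPKM and Ptk6 0.568, 0.383 and 0.144 FPKM in D_MgHCF, without overlap with DOX or D_DXZ.

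Junction and channel genes (10, Gjd3 included) held 3 connexins and 3 claudins, of which Cldn7 had 0.415, 0.202 and 0.0837 FPKM in D_MgHCF, 0.169, 0.440 and 0.133 in DOX and 0.0636, 0.313 and 0.231 in D_DXZ. Its groups overlapped throughout. Of the 4 epithelial markers (Epcam, Cdh1, Krt8 and Krt18), all were detected in every D_MgHCF library, with a summed level of 0.425 to 1.63 FPKM, against 0.0464 to 0.154 in Unt, 0.189 to 0.233 in DOX and 0.0316 to 0.201 in D_DXZ. Epcam was at 0 in Unt and DOX. The part of these markers in the result was not tested.

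Genes typical of liver, kidney and gut numbered 12, and 9 of them lay above DOX (32.5% of all genes tested) and 6 above D_DXZ (30.6%) without overlap. Spink4, a protease inhibitor of goblet cells, had 2.79, 0.988 and 0.769 FPKM in D_MgHCF, 0.414, 0.163 and 0.181 in DOX and 0.260, 0.960 and 0 in D_DXZ. It was above all DOX libraries and overlapped D_DXZ. Rhcg, an ammonia channel of the renal collecting duct, had 1.45, 1.29 and 0.347 FPKM and a few reads in 1 DOX and 1 D_DXZ library (0.0698 and 0.103 FPKM). F13b, a subunit of coagulation factor XIII, and Slc22a7, an organic anion transporter, had at most 2 reads each in replicate 3, against 1.03 and 0.783 FPKM in replicate 1. Hepatocyte markers did not follow: Ttr was at 0 in all libraries, Alb had 0.0610 FPKM in D_MgHCF replicate 1 and 0 in the other 2, and the sum of Alb, Ttr and Apoa1 ranged from 0.0989 to 0.369 FPKM in D_MgHCF, 0 to 0.132 in Unt, 0.0533 to 0.252 in DOX and 0.1002 to 0.559 in D_DXZ.

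Platelet and leukocyte genes (12) were led by Gp9, a subunit of the platelet receptor for von Willebrand factor. It ran against the usual order of the replicates, with 0.865, 1.25 and 3.28 FPKM in D_MgHCF replicates 1 to 3 (16, 28 and 71 reads), 1.05, 0.177 and 0.294 in DOX and no reads in D_DXZ. The highest DOX library overlapped the lowest D_MgHCF library, and the D_MgHCF mean of 1.80 ± 1.30 was at least 22.5-fold above D_DXZ. Themis2 and Cd72, both of B cells, and Nlrp10, of the inflammasome sensor family, were detected in every treated library. Themis2 had means of 0.205 FPKM in DOX, 0.355 in D_DXZ and 0.258 in D_MgHCF. Of the 12 genes, 4 lay above DOX and 8 above D_DXZ without overlap, where all genes tested gave 32.5% and 30.6%. Of 4 leukocyte markers, Cd3e and Ptprc were at or below 0.0129 FPKM in D_MgHCF, Lyz2 ranged from 0.0310 to 0.615, and Cd68 from 1.98 to 4.77 against 0.885 to 1.11 in Unt, 2.75 to 3.51 in DOX and 3.79 to 4.29 in D_DXZ. Summed over the list, the levels were 2.01 to 5.39 in D_MgHCF, 1.04 to 1.22 in Unt, 3.01 to 3.79 in DOX and 4.14 to 4.65 in D_DXZ, and their part was not tested.

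Developmental transcription factors and a Notch ligand (12) stayed at low levels, with a median of 0.277 FPKM in D_MgHCF. Cited4, a transcriptional coactivator, had the highest level (1.87, 0.975 and 0.0652 FPKM), no read in DOX and 0, 0.305 and 0 FPKM in D_DXZ, so that it overlapped D_DXZ. Dlx3, a homeobox factor of skin and bone, had 1.39, 0.708 and 0.0625 FPKM, with at most 2 reads in any DOX or D_DXZ library. Nkx2-5, the cardiac homeobox factor, had 0.219, 0.1803 and 0.321 FPKM on 26 reads and was thus highest in replicate 3. Of the cardiomyocyte markers in D_MgHCF, Tnnt2 ranged from 0.350 to 0.536 FPKM, Nppa had 0, 0.273 and 0.0471 FPKM, and Actc1, Myh6 and Ryr2 were at most 0.0883 FPKM. On the FPKM scale their sum (0.512 to 0.741) lay below that of DOX (0.855 to 0.973), overlapped D_DXZ (0.569 to 0.625) and lay above Unt (0.0969 to 0.332). Most of it was Tnnt2, with means of 0.903 FPKM in DOX, 0.495 in D_DXZ and 0.424 in D_MgHCF. Rescaling to TPM moved all genes of D_MgHCF up by 1.22 (log2) against DOX and by 1.04 against D_DXZ. The sums were not computed on that scale, so their order is given for FPKM only. Mixl1 and Etv2, factors of early mesoderm, were present in all treated libraries, at means of 0.0991 and 0.214 FPKM in DOX, 0.0749 and 0.139 in D_DXZ and 0.263 and 0.257 in D_MgHCF.

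Neural and sensory genes (6, among them Nrgn and Robo3) and cilium genes (3, led by Dnaic1) completed the groups, with D_MgHCF above DOX without overlap for 5 and 2 of them (32.5% of all genes tested) and above D_DXZ for 5 and 3 (30.6%). The neuron markers summed to 8.51 to 9.40 FPKM in Unt and 25.7 to 30.6 in D_MgHCF (10.2 to 13.5 in DOX and 5.84 to 11.7 in D_DXZ), nearly all of it Tubb3, while Snap25 was at 0 in all libraries and Syt1 at most 0.00977 FPKM. Whether these markers had a part in the result was not tested. Endothelial markers (Pecam1, Cdh5 and Kdr) summed to 0.237 to 0.989 FPKM in D_MgHCF, 0.0383 to 0.0698 in Unt, 0.0483 to 0.1998 in DOX and 0 to 0.0570 in D_DXZ. The remaining 57 genes fell into no role group. They held all 16 predicted genes named Gm or Rik and several of the genes with high levels or many reads.

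Among these, 2010003K11Rik had 3.60, 1.45 and 0.210 FPKM in D_MgHCF, at least 50.0-fold above untreated cells on average, and at most 2 reads in any DOX or D_DXZ library. Arrdc5, of the arrestin domain family, had 3.57, 1.19 and 0.155 FPKM, and Nepn, a leucine-rich repeat proteoglycan gene, 1.98, 0.924 and 0.0204 FPKM. In both, replicate 3 rested on few reads (4 and 1). By contrast, 1700007K13Rik was even across replicates (1.97, 1.30 and 1.14 FPKM, mean 1.47 ± 0.442), and DOX reached at most 0.205 and D_DXZ at most 0.0791 FPKM. Galnt16, a glycosyltransferase gene with the most reads of all (150, 133 and 17), had 0.887, 0.649 and 0.0861 FPKM, against 0.0211 and 0.0202 FPKM on average in DOX and D_DXZ and at least 107-fold more than in untreated cells. Acoxl (199 reads), Acer2 (192 reads), Fam19a3 (188 reads), Btnl10 (188 reads) and Meltf (214 reads) were also well covered. Acoxl and Galnt16 overlap another gene on the same strand, as do 11 of the 158 genes, and Fam19a3 shares sequence with the overlapping Gm43584, so that their reads are uncertain in origin. On either strand, 47 of the 158 genes overlapped another gene, compared with 45.0% of all coding genes.

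**Figure D3:**
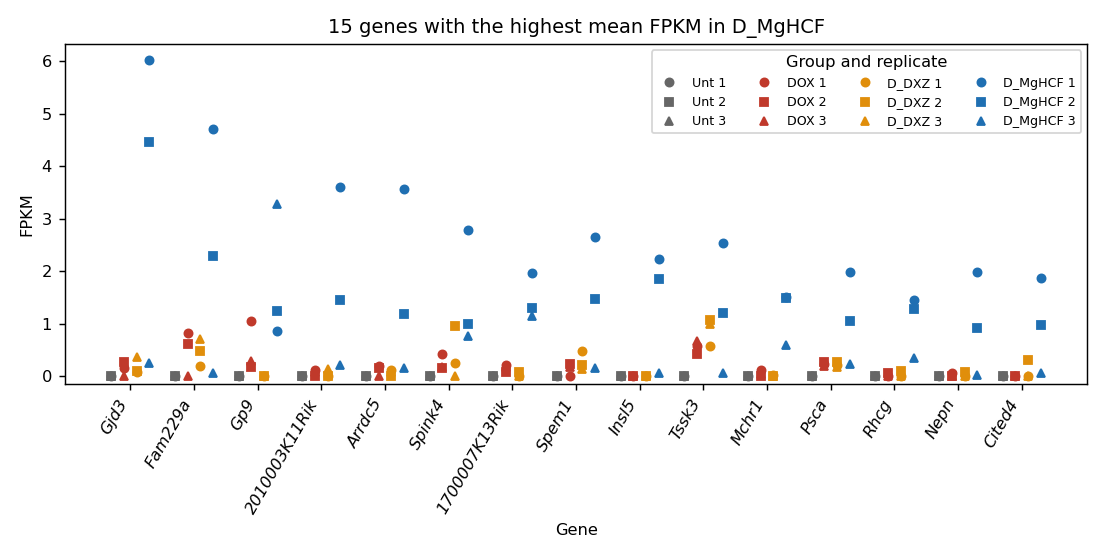
FPKM of the 15 genes with the highest mean in D_MgHCF, with 1 point per library, colour for the group and symbol for the replicate. D_MgHCF replicates 1 and 2 (blue circles and squares) stand highest for most genes and replicate 3 (blue triangles) often falls among DOX and D_DXZ; Gp9 has replicate 3 on top at 3.28 FPKM.

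The 13 genes with their highest value in replicate 3 were Gp9, Meltf, 1700018B08Rik, Oas1h, Ankdd1a, Rln3, Dusp9, Gm6970, Il17b, Robo3, Nkx2-5, Ccdc187 and 1700013G24Rik, singled out after their values were seen. Together they held 199, 247 and 516 reads in D_MgHCF replicates 1 to 3, whereas the other 145 genes held 5590, 3965 and 872. Meltf, encoding melanotransferrin, an iron-binding membrane protein, had 0.461, 0.732 and 0.956 FPKM in D_MgHCF, 0.414, 0.0943 and 0.0628 in DOX and 0, 0.0923 and 0 in D_DXZ, and its D_MgHCF libraries were above all others. The long gene Ccdc187 had 0.257, 0.120 and 0.348 FPKM on 167 reads. In DOX, the 13 genes held 83, 17 and 13 reads in replicates 1 to 3. DOX replicate 1 was the highest DOX library for 8 of the 13, and for 61 of the other 145.

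**Figure D4:**
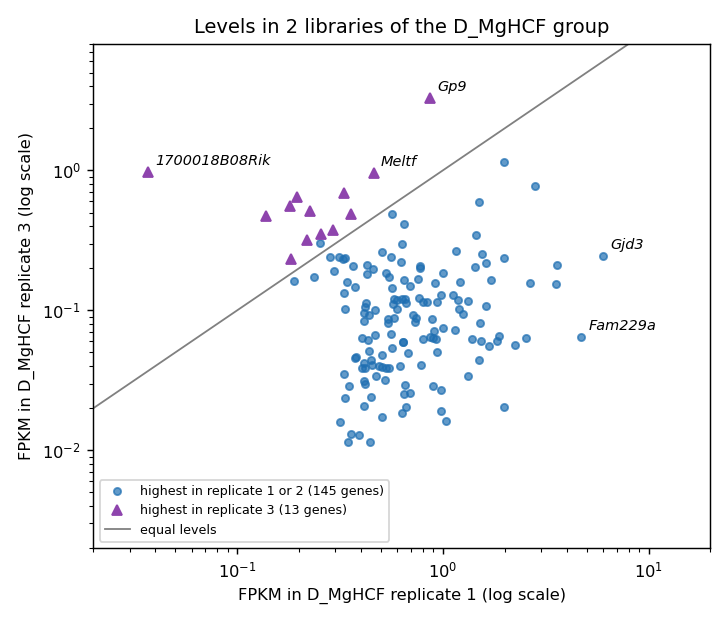
FPKM of the 158 genes in D_MgHCF replicate 3 against replicate 1, both on log axes, with the line of equal levels. Most points lie below the line, by a median factor of 8.18, and the 13 genes with their highest value in replicate 3 (triangles) lie above it.

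The values in DOX and D_DXZ were not used for the selection. In DOX, 134 of the 158 genes had reads in at least 1 library, and 24 had none. All 3 DOX libraries detected 25 of them (15.8%), compared with 0.83% of the 7110 coding genes at 0 in untreated cells. In D_DXZ, 108 had reads in at least 1 library, and 29 (18.4%) were detected in all 3, compared with 1.35% of the 7110. The 7110 include the 158 and many genes without a read in any library. All of the 158 were chosen as detected in 3 libraries with doxorubicin, as were 811 of the 7110. Higher shares for the 158 thus follow in part from the choice, and nothing is read from them. Levels remained low, since 12 genes reached a mean of 0.2 FPKM in DOX and 13 in D_DXZ. D_MgHCF libraries all lay above all DOX libraries for 90 genes (57.0%, against 32.5% of all genes tested) and above all D_DXZ libraries for 104 (65.8%, against 30.6%), and for 74 genes above both. On the TPM scale, which moved all genes of D_MgHCF up by 1.22 (log2) against DOX and by 1.04 against D_DXZ, the numbers were 130 and 132. The shares of 32.5% and 30.6% hold for FPKM and for each group alone. No share of all genes was computed for both groups together or on the TPM scale, and nothing is read from these counts. For genes with more than 3 reads in the group compared, the median ratio of D_MgHCF to DOX was 5.87 (68 genes) and to D_DXZ 4.53 (49 genes).

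A total of 13 genes had no read in DOX or D_DXZ: Insl5, Gm19935, Aldoart2, Gm13277, Gm29735, B3gnt3, Serpinb6e, Sohlh1, Gm45337, Tmem54, Resp18, Batf and 1700013G24Rik. B3gnt3, a glycosyltransferase of mucins, was supported by the most reads in this set (74). Gm13277, Gm29735 and Gm45337 are among 11 of the 158 genes that share at least 1 stretch of near-identical sequence with a transcript of another gene. Reads in such stretches cannot be assigned with certainty. The shared stretches need not be copies of a whole gene. At the other end, another 13 genes were detected in every treated library, in order of their DOX mean Avp, Tssk3, Cldn7, Psca, Etv2, Themis2, Nlrp10, Grb7, Mixl1, Cd72, Hcn3, Ankdd1a and Tspan10. Mean FPKM in DOX exceeded that in D_MgHCF for 3 of the 158 genes (Avp, Bglap2 and Cldn7), and mean FPKM in D_DXZ did so for 4 (Avp, Egr4, Ccer2 and Themis2). On the TPM scale the numbers were 1 and 2.

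The comparison of D_DXZ with DOX asks whether the cardioprotectant in clinical use changed these genes, and its difference between group means uses none of the values that selected them. The spread in limma was estimated over all 4 groups and so includes them. With limma on log2(FPKM + 1), 2388 of 25044 genes (9.54%) had an unadjusted p under 0.05 (1143 higher and 1245 lower in D_DXZ), while 0% stayed under 0.05 after Benjamini-Hochberg adjustment over all genes. All 158 genes met the filter of this fit, above 0 in at least 3 libraries, through the D_MgHCF libraries that selected them. Of these genes, 13 had no read in DOX or D_DXZ and could not be called. The share of the 158 genes called is therefore not read against that of all genes. Of the 158 genes, 1 passed the unadjusted threshold (0.633%). This was Egr4, encoding a zinc finger factor of the early growth response family. It had 0.173, 1.60 and 0.558 FPKM in D_DXZ (6, 45 and 16 reads) and 0.0307, 0.0726 and 0 FPKM in DOX (1, 2 and 0 reads), without overlap between these groups. The difference was 0.70 (SE 0.28) on the log2(FPKM + 1) scale in limma, with an unadjusted p of 0.0330 and an adjusted p of 0.485. Without D_DXZ replicate 2 it was 0.39 (unadjusted p of 0.141 in limma), and leaving out any of the 3 DOX libraries gave 0.68 to 0.73 with unadjusted p of 0.0572 to 0.0734. In a fit of DOX and D_DXZ alone, whose spread uses none of the values that selected the genes, the difference was again 0.70 with an unadjusted p of 0.0673 in limma, so that Egr4 was not called. In that fit 6 of the 158 genes were called, beside 3008 of the 25044 genes tested. D_DXZ replicate 2 decided the size of the difference, and the call was lost whichever DOX library was left out. In D_MgHCF, Egr4 had 0.975, 0.128 and 0.0190 FPKM, overlapping both other groups. Over the 158 genes the log2 differences ran from -0.55 to 0.70 with a median of -0.01, and the median of all genes tested was -0.00469. The 1 added to FPKM before the logarithm holds most differences of such low genes near 0. Nothing is therefore read from the likeness of these medians.

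The position of the genes in the genome was not used for the selection. The median distance to the nearest gene with a mean of at least 1 FPKM in untreated cells was 7538 bases for the 158 genes, 21440 bases for the other 653 coding genes at 0 in Unt and detected in all 3 D_MgHCF libraries, and 147300 bases for the 6299 that were not so detected. Over all 21932 coding genes it was 16620 bases. An active gene on the same strand lay upstream within 20 kb for 47 of the 158 genes (29.7%), compared with 13.8% of the 653, 3.60% of the 6299 and 18.3% of all coding genes. Within 5 kb this was so for 12 genes (7.59%), a share close to the 7.23% of all coding genes, with 2.91% of the 653 and 0.937% of the 6299. The upstream neighbours themselves were higher in D_MgHCF than in Unt in 26 of 47 cases, with a median ratio of 1.14, against 0.904 for 11279 genes with a mean of at least 1 FPKM in Unt. How many of the 11279 were higher in D_MgHCF was not computed, and nothing is read from the 26 of 47. Transcripts of the 158 genes had a median GC content of 54.9%, compared with 51.9%, 44.6% and 48.7% in the 3 other sets, and a median length of 2006 bases, compared with 3575, 2004 and 3382 bases. Since FPKM per read falls with gene length, the minimum mean of 0.2 takes in shorter genes at fewer reads. These are descriptions of position and sequence, and no test was made.

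**Figure D5:**
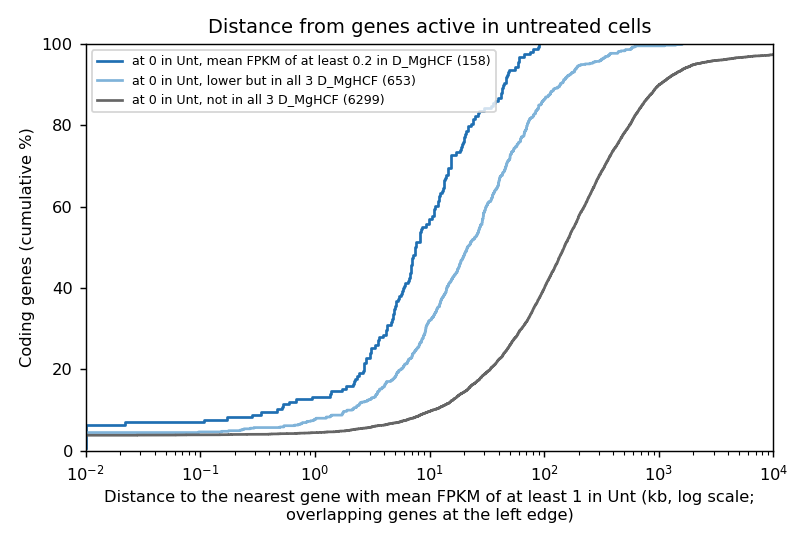
Cumulative percentage of coding genes (y axis) against the distance to the nearest gene with a mean of at least 1 FPKM in untreated cells (x axis, kb, log scale), for 3 sets of genes at 0 in untreated cells. The 158 genes lie closest, with a median of 7538 bases against 21440 and 147300 bases in the other 2 sets.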

How the data were processed

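Poly(A) RNA of 12 libraries was sequenced by the authors as 150 bp paired-end reads. HISAT2 2.0.5 and GRCm38/mm10 are named in the submitters' processing notes, and the counting program and annotation release are not given in the sources used here. The authors deposited FPKM values of 54345 genes with gene length and GRCm38 coordinates. FPKM multiplied by length was a whole multiple of 1 step per library for 100% of values (tolerance 0.05 reads), which gave the reads, and the step carries a between-library scaling by the authors. The number of sample columns left unused was 0.

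D_DXZ was compared with DOX with limma 3.58.1 (R 4.3.3, trend, no covariate, 1 fit over the 4 groups) on log2(FPKM + 1) of 25044 genes above 0 in at least 3 libraries, called at an unadjusted p under 0.05 as in the study, with Benjamini-Hochberg values beside it. The fit was tested on simulated data with changes placed in well covered genes only, which does not cover genes as low as the 158. Such fold changes understate those of low genes. Genes called active had a mean of at least 1 FPKM in Unt. Of the 158 genes, 146 had identical coordinates in GENCODE M21. Stretches shared with transcripts of other genes were searched with BLAST 2.17.0 (at least 95% identity over at least 150 bases). Promoters are those of RefSeq, GRCm38.p6. Other steps used Python 3.11.15, pandas 2.3.3, numpy 2.4.6 and matplotlib 3.10.9.

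The genes and lists were chosen with earlier results of these data known. The genes named were the 15 with the highest mean FPKM and the 15 with most reads in D_MgHCF, up to 10 detected in all libraries of DOX and D_DXZ, those with an unadjusted p under 0.05, the 3 on each side of the minimum, and the highest of each class (by symbol) with at least 3 of the genes. The role groups, and other genes named, were picked after the values or names were seen. Alternatives were other minimum levels, at least 3 reads per library, rescaling, pseudocount, filters, normalization, a replicate block, voom and leaving out each library.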

Additional observations from a re-analysis of the deposited data

How the results depend on the processing

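The number of genes that met the criteria was 317 at a minimum mean of 0.1 FPKM, 48 at 0.5 FPKM, 112 with at least 3 reads in each D_MgHCF library and 494 at a minimum mean of 0.2 TPM, which lies at a lower read number. For DOX in the place of D_MgHCF these settings gave 18, 4, 5 and 17 genes, for D_DXZ 35, 4, 9 and 34, and for the reversed criteria 4, 0, 0 and 7. Leaving out each library in turn gave 109 to 276 genes (276 without D_MgHCF replicate 3), 11 to 16 for DOX, 14 to 25 for D_DXZ (25 without replicate 1) and 2 to 3 for the reversed criteria. With 1 library fewer, a gene has fewer values to satisfy, so that larger numbers follow in part from the construction.

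Among the 48 genes at a minimum of 0.5 FPKM, 11 were detected in all DOX and 12 in all D_DXZ libraries. Of the 48, 30 and 31 lay above DOX and D_DXZ without overlap (32.5% and 30.6% of all genes tested). Shares of all genes with a library left out were not computed. With each library left out and the genes chosen again, detection in all DOX libraries ranged from 19 to 57 genes (44 without DOX replicate 2, 57 without replicate 3, and 47, 38 and 41 without Unt replicates 1 to 3), detection in all D_DXZ libraries from 19 to 48 (19 without D_MgHCF replicate 1, 46 without replicate 3, and 48 and 45 without Unt replicates 1 and 2), and non-overlap from 70 to 252 genes for DOX and from 78 to 247 for D_DXZ (252 and 247 without D_MgHCF replicate 3).

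For D_DXZ against DOX, numbers of the 158 genes called are given with those of all 25044 genes tested in brackets. They were 7 with a pseudocount of 0.1 (2602), 7 after quantile normalization (1985) and 6 in a fit of both groups alone (3008). Voom on the recovered reads gave 12 (2049), and adjusted p gave 0 (0). Of the 4 that reached 1 FPKM in 3 or more libraries, 0 were called (1704 of 12434 genes). The number of the 158 genes called ranged from 0 to 6 when libraries were left out (2 without DOX replicate 2, 0 without DOX replicate 3, 5 and 6 without D_MgHCF replicates 1 and 3). Over all genes, 1328 were called on TPM, which moved all genes by 0.177 (log2), 0 with adjusted p, and 1445 to 3890 with libraries left out (1521 and 1560 without DOX replicates 2 and 3, 1445 without D_DXZ replicate 1, 3890 without D_MgHCF replicate 3). Voom also called 0 genes after adjustment, of 2049 unadjusted. Egr4 was higher in D_DXZ in all of these settings that tested it and missed the threshold in 6, among them the fit of DOX and D_DXZ alone (unadjusted p of 0.0673 in limma). A fit with a replicate block called 2 of the 158 genes and 2343 genes in all. Libraries of the same number in DOX and D_DXZ deviated together by r of 0.39, 0.0494 and 0.305 across genes, not over 0.1 for every pair, so that the numbers were not taken as pairs. The causes of these changes were not tested.

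In D_MgHCF replicate 3, 30 genes rested on 1 read, although this library held 17317176 reads on genes against 16626514 in replicate 1.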
